A study of Mus musculus with 6 samples.

Results

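Expression of 36 genes of fatty acid uptake and oxidation was compared in mouse muscle between animals treated with click and animals treated with EDC. The genes were chosen by symbol from the deposited count table, where each of the 36 stood on a line of its own among 52110 lines with a gene symbol. They were sorted by role into 7 genes of uptake, binding and activation, 5 of the carnitine shuttle and its malonyl-CoA control, 16 of beta-oxidation and electron transfer, and 8 regulators and fatty acid responsive genes. Each group held 3 libraries from WT mice of the strain labelled c57b6l, and the series design names 3 mice per group. No group is labelled as untreated. The labels used here name tissue, strain, agent and genotype, and leave dose, time, age and the muscle sampled unnamed. Each fold change below is the click level over the EDC level.

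Muscle burns fatty acids delivered by the blood or released from its own fat droplets. Lipoprotein lipase frees them from circulating triglyceride, CD36 and the FATP proteins help them into the fibre, and acyl-CoA synthetases activate them. Carnitine palmitoyltransferases and a carrier in the inner membrane then bring the acyl groups into the mitochondrion, where beta-oxidation shortens them and passes electrons to the respiratory chain. PPAR receptors and the PGC-1 coactivators, which sense fatty acids and energy demand, set the level of many of these genes, and slow fibres are known to carry more of this machinery than the fastest fibres.

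The libraries held 34472421 to 39305779 reads. Mitochondrially encoded genes took 18.9% to 30.2% of the reads in click and 14.8% to 17.9% in EDC. Xist, a transcript of female tissue, had 8755 reads in click replicate 1, 11813 in EDC replicate 1 and 0 in the other libraries. The label muscle matched the markers, since 7 skeletal muscle markers summed to 96552 to 143250 CPM in click and 67943 to 106760 CPM in EDC, where CPM is a gene's reads scaled to a common library total with TMM factors, which align the bulk of genes between libraries. Of the 4 heart markers, Nppb had 0 reads in all libraries, and Nppa and Myl7 had at most 6 reads in a library. The other, Myh6, was at 13.6, 26.9 and 4.33 CPM in click and 0.458, 2.35 and 1.75 CPM in EDC without overlap (log2 fold change 3.30), and DESeq2 called it while edgeR did not. Ucp1, the defining gene of brown fat, had at most 13 reads.

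No gene of the 36 passed the test across all genes. By the edgeR quasi-likelihood test with Benjamini-Hochberg adjustment, 0 of 36 were called at an adjusted p under 0.05, where 0.00633% of the 15797 genes tested were called, and the adjusted p of the 36 ran from 0.298 to 0.999. At an unadjusted p under 0.05 edgeR gave 3 of the 36 (8.33%), against 15.2% of all genes. These were Acacb and Echs1, higher in click, and Angptl4, lower in click. In all genes 7.22% were higher and 8.0% lower in click at that p. The DESeq2 Wald test called 0 of the 36, against 3.84% of all genes (1.56% higher and 2.27% lower), with 4 at an unadjusted p under 0.05, against 18.9% of all genes (8.75% higher and 10.2% lower). Limma-voom called 0, against 0.0% of all genes, with 5 at an unadjusted p under 0.05 (16.5% of all genes). All 36 passed the low-count filter, the lowest being Ppara with 13 to 48 reads per library. Counts were also simulated with the same spread between libraries for every gene, a dispersion of 0.164 as estimated from these data. There edgeR called a share of 0.0 of 2-fold changes and 0.55 of 4-fold changes. DESeq2 called 0.1 and 0.71, and limma-voom 0.0 and 0.44. At a dispersion of 0.01 each tool called a share of 1.0 of both. The spread of the 36 genes themselves was not simulated, so these shares are not theirs. An absence of calls among the 36 does not by itself show equal levels in click and EDC.

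The unadjusted count depended on single libraries. Leaving out EDC replicate 2 gave 14 of 36, against 18.2% of all genes, and leaving out click replicate 3 gave 7, against 21.3%. The count was 1 when click replicate 2 was left out (9.92% of all genes) and 1 when EDC replicate 3 was left out (6.59%). It was 0 with EDC replicate 1 left out (8.86%) and 3 with click replicate 1 left out (1992 of 16560 genes). No member was called in any of these fits.

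The direction of the group as a whole depended on the scaling. With TMM the log2 fold change was above 0 in 30 of 36 genes (83.3%), against 51.3% of all genes tested, with a median of 0.36 against 0.02. With library totals in place of TMM factors the median of all genes moved to -0.45 and that of the 36 to -0.09, and 10 of 36 were above 0, against 18.6% of all genes. The median of the 36 minus the median of all genes was 0.34 with TMM and 0.36 with library totals. The values of click and EDC libraries did not overlap in 2 of the 36 genes (5.56%), Acacb and Angptl4, where 22.2% of all genes did not overlap (9.84% with click higher and 12.4% with click lower).

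**Figure D1:**
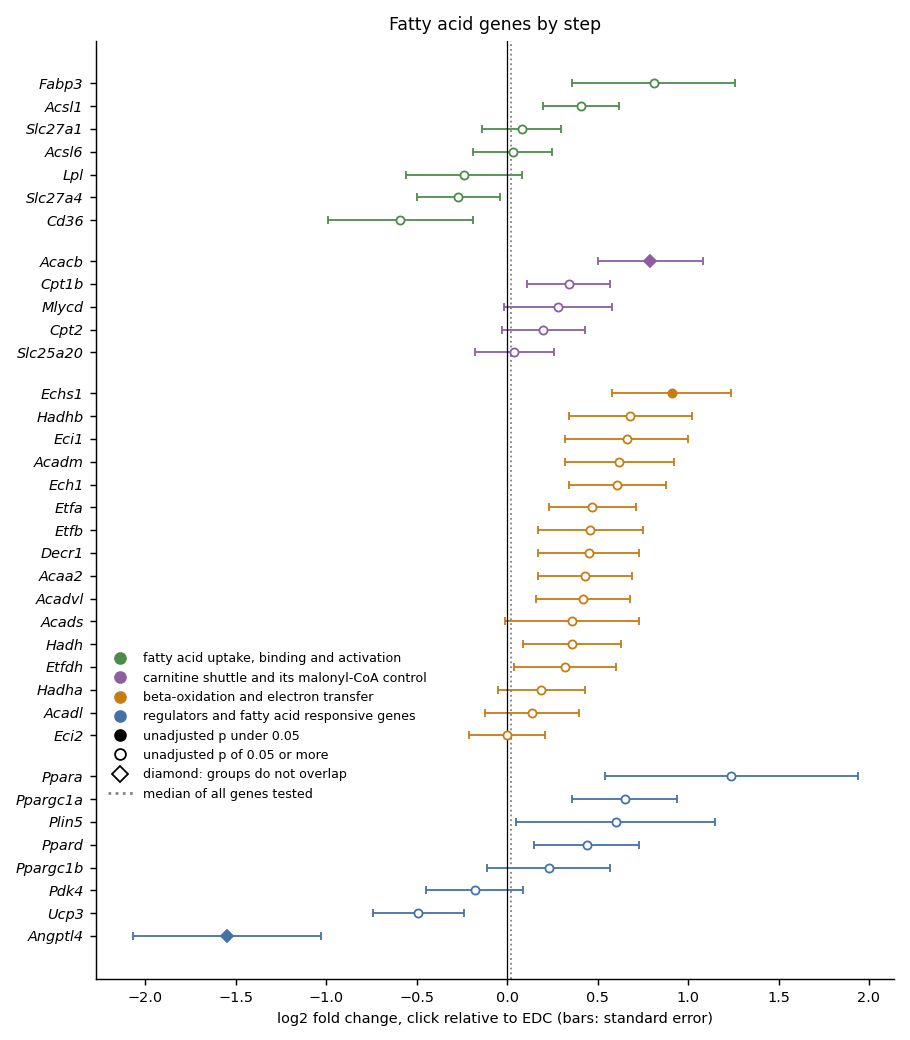
Log2 fold change of each of the 36 genes, click relative to EDC, from edgeR with TMM scaling, ordered within each step. Bars are standard errors, filled symbols mark an unadjusted p under 0.05, diamonds mark groups that do not overlap and the dotted line is the median of all genes tested (0.02). The 16 beta-oxidation genes lie between 0.00 and 0.91, while Angptl4 lies at -1.55.

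Promoter sequences were available for 30 of the 36 genes as RefSeq windows on GRCm38.p6, the assembly of mm10, from 250 bases before to 50 bases after the annotated start. Lpl, Cpt1b, Decr1, Acaa2, Angptl4 and Ppargc1b had none. Each window was searched on both strands for a direct repeat, the form bound by PPAR with its RXR partner, written as AGGTCA, any base, AGGTCA with at most 2 mismatches, and for TCAAGGTCA, the form bound by estrogen-related receptors, exactly. Matches to the direct repeat lay in 5 of the 30 genes (16.7%), Cd36, Slc25a20, Echs1, Etfa and Ucp3, and in 4.40% of 27025 genes with a window. TCAAGGTCA lay in 1 of the 30 genes (3.33%), Acsl6, and in 0.466% of all. A match is a description of these letters, and no binding was measured.

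Stretches before the RefSeq start of the window are shown for the 4 genes whose direct repeat match lay there. For Cd36 this start lies inside the gene, which is annotated from 17781690 to 17888801 on the minus strand. Echs1 and Etfa belong to the beta-oxidation genes, Cd36 to the uptake genes and Ucp3 to the regulators and fatty acid responsive genes. Capitals mark the match, and each sequence is on the strand of its gene, outside annotated exons.
Cd36, chr5:17835897-17836046, minus strand: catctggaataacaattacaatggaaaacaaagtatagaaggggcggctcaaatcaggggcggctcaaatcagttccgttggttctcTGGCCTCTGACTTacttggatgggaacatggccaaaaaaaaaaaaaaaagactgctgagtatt
Echs1, chr7:140116477-140116626, minus strand: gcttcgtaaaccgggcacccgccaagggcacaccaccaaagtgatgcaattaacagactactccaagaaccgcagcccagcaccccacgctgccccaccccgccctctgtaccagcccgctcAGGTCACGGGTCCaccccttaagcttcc
Etfa, chr9:55512244-55512393, minus strand: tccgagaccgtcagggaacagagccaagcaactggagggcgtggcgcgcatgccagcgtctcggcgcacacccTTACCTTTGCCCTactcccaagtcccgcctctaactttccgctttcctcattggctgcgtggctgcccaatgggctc
Ucp3, chr7:100472840-100472989, plus strand: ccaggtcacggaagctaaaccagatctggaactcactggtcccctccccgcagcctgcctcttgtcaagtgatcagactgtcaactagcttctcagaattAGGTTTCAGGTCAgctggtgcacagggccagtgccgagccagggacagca
Echs1 and Etfa had log2 fold changes of 0.91 and 0.47, and Ucp3 and Cd36 of -0.49 and -0.59. The matches in Cd36 and Etfa lay on the other strand than the gene, those in Echs1 and Ucp3 on the same strand.

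Hadha and Hadhb encode the alpha and beta subunits of the mitochondrial trifunctional protein, the membrane enzyme that carries out the later steps of beta-oxidation on long chains. They lie head to head on chromosome 5, Hadha on the minus strand from 30118304 to 30155162 and Hadhb on the plus strand from 30155248 to 30184593. The 85 bases between the annotated genes, which thus precede both, are shown on the plus strand and held neither motif.
Hadha to Hadhb, chr5:30155163-30155247: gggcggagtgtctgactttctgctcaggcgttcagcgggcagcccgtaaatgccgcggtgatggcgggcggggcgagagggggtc
The levels of the pair are given with the beta-oxidation genes.

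Uptake, binding and activation genes pointed in different directions. Of 7 genes 4 were higher and 3 lower in click, with a median log2 fold change of 0.03 and a range of -0.59 to 0.81, and 0 were called. With library totals the median was -0.46, near that of all genes (-0.45), and 1 of 7 lay above 0. Cd36, the scavenger receptor that takes up long-chain fatty acids, stood at 112, 220 and 138 CPM in click replicates 1, 2 and 3 and at 173, 168 and 365 CPM in EDC replicates 1, 2 and 3. EDC replicate 3 was the highest library, and click replicate 2 lay above both other EDC libraries, so the groups overlapped. The log2 fold change was -0.59 (SE 0.40, edgeR adjusted p = 0.476), and it was -0.13 without EDC replicate 3 and -0.96 without click replicate 2. Lpl, lipoprotein lipase, was at 600, 803 and 473 CPM in click and 642, 573 and 1003 CPM in EDC, again with EDC replicate 3 highest. Its log2 fold change was -0.24 (SE 0.32, edgeR adjusted p = 0.715), and 0.04 without EDC replicate 3.

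Fabp3, the heart and muscle fatty acid binding protein, was at 362, 382 and 200 CPM in click and 122, 304 and 114 CPM in EDC. Exons of Zcchc17 on the opposite strand cover 9.84% of the Fabp3 exon bases, and Zcchc17 had 9033 reads in all libraries together. The high EDC value was replicate 2 and the low click value was replicate 3, so the groups overlapped (log2 fold change 0.81, SE 0.45, edgeR adjusted p = 0.408). Acsl1, the main long-chain acyl-CoA synthetase of muscle, had the smallest p of this step. It was at 166, 114 and 153 CPM in click and 109, 97.1 and 121 CPM in EDC, with click replicate 2 below EDC replicate 3 (0.41, SE 0.21, edgeR adjusted p = 0.378). With library totals the Acsl1 value was -0.08. Its relative Acsl6 gave 0.03 (SE 0.22), and the transporters Slc27a1 (FATP1) and Slc27a4 (FATP4) gave 0.08 (SE 0.22) and -0.27 (SE 0.23).

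Markers of other cells differed in the same libraries. EDC replicate 3, highest in Cd36 and Lpl, also had the highest summed level of 7 macrophage markers. Click replicate 2, the next highest library in both genes, had the lowest summed level. That sum was 1084, 130 and 962 CPM in click and 2078, 1630 and 3911 CPM in EDC. Macrophages, endothelium and fat cells are known to express Cd36, Lpl or both. The sum of 7 endothelial markers was 206 to 243 CPM in click and 207 to 235 CPM in EDC. Adipocyte markers other than Fabp4, which many endothelial cells also express, summed over 6 genes to 4.38, 59.9 and 121 CPM in click and 129, 114 and 63.2 CPM in EDC. With Fabp4, which made up most of the sum, 6 of 7 lay lower in click at a median log2 fold change of -0.61, and neither edgeR nor DESeq2 called any, with Lep at 0 reads in click replicates 1 and 2 and Plin1 at 0 in click replicate 1. The part of these cells in the levels of Cd36 and Lpl was not tested, and in bulk tissue fewer cells of a type and less RNA per cell cannot be told apart.

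**Figure D2:**
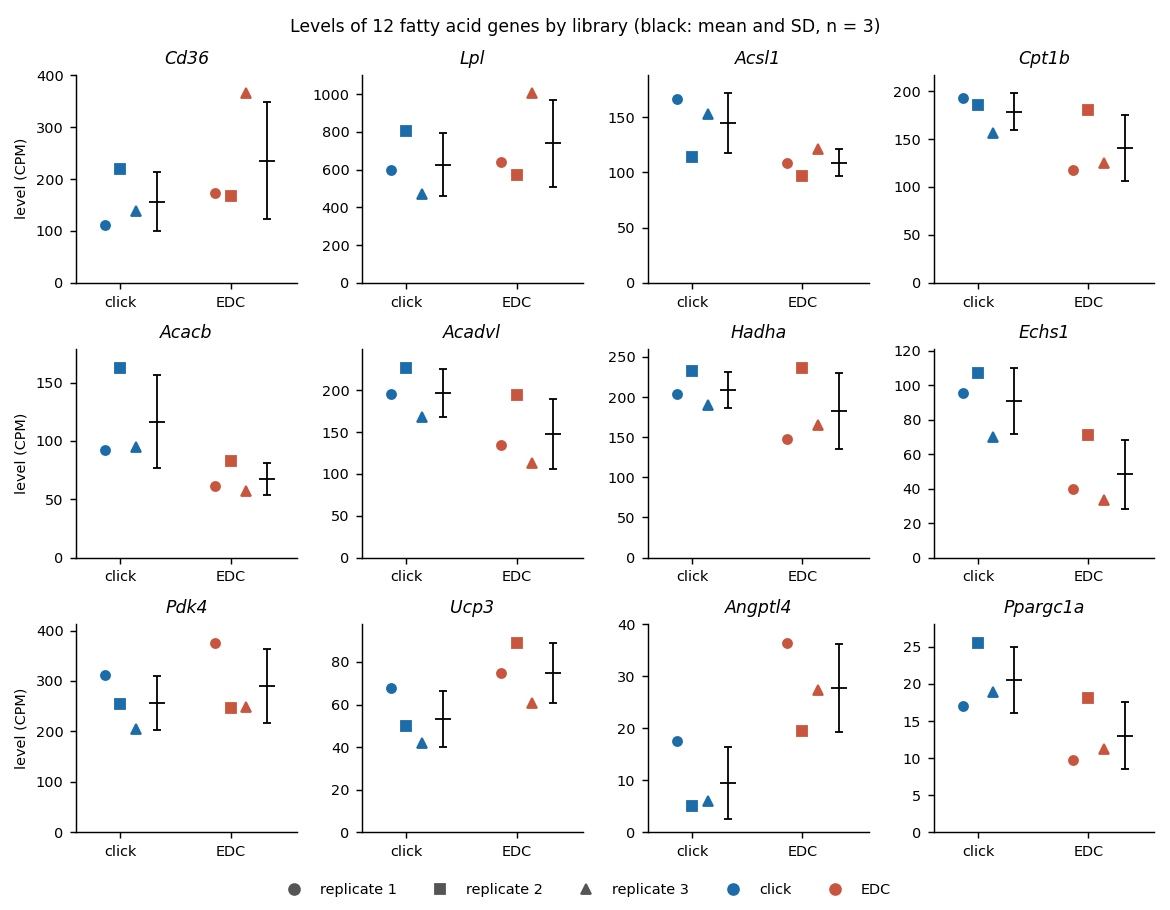
Level in CPM of 12 of the genes in each library, with replicate number given by symbol and the group mean and SD (n = 3) in black, every axis starting at 0. Acacb and Angptl4 show groups that do not overlap, and EDC replicate 2 reaches the click range in Cpt1b, Acadvl, Hadha, Echs1 and Ppargc1a.

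Among the 5 genes of the carnitine shuttle and its control, the largest estimated difference lay in the enzyme that makes the shuttle's inhibitor. All 5 had a log2 fold change above 0 with TMM and 1 of 5 with library totals (51.3% and 18.6% of all genes). The medians were 0.28 and -0.23, against 0.02 and -0.45 for all genes, and 0 were called. Cpt1b, the muscle form of the outer membrane carnitine palmitoyltransferase and the entry gate to oxidation, was at 193, 185 and 157 CPM in click and 118, 180 and 125 CPM in EDC. EDC replicate 2 lay inside the click range (log2 fold change 0.34, SE 0.23, edgeR adjusted p = 0.477). In the annotation used, 81.4% of the exon bases of Cpt1b also belong to a read-through gene model on the same strand. Cpt2, the inner membrane partner, gave 0.20 (SE 0.23), and the carnitine acylcarnitine carrier Slc25a20 gave 0.04 (SE 0.22).

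Acacb, the acetyl-CoA carboxylase at the mitochondrial surface, makes the malonyl-CoA that blocks carnitine palmitoyltransferase. It stood at 92.1, 162 and 94.6 CPM in click and 61.8, 82.7 and 57.2 CPM in EDC. Each click library lay above each EDC library, with click replicate 2 far above the rest. The log2 fold change was 0.79 (SE 0.29, unadjusted p = 0.0270, edgeR adjusted p = 0.299), a 1.73-fold higher level, and 0.44 without click replicate 2. Mlycd, the decarboxylase that removes malonyl-CoA, gave 0.28 (SE 0.30), from levels of 58.0 ± 15.2 and 47.8 ± 14.1 CPM (SD, n = 3). The difference between the pair was not tested.

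Beta-oxidation genes had higher click values with TMM in 16 of 16, Eci2 by a margin that rounds to 0.00, and in 5 of 16 with library totals. Their median log2 fold change was 0.44 with TMM and -0.04 with library totals, against -0.45 for all genes, and 0 were called. The differences followed particular libraries: EDC replicate 2 was the highest EDC library in 16 of 16 genes and reached at least the lowest click value in 16 of 16. EDC replicate 1 lay below every click library in 13 genes, EDC replicate 3 in 15, and both together in 12. Among the click libraries replicate 3 was lowest in 15 of 16 genes. The mean log2 level of the 16 genes, centred on the 6 libraries, was 0.32, 0.37 and -0.01 in click and -0.41, 0.22 and -0.50 in EDC.

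Echs1, the short-chain enoyl-CoA hydratase, had the smallest p of this step. It was at 95.6, 107 and 70.0 CPM in click and 39.8, 71.4 and 33.6 CPM in EDC, with EDC replicate 2 just above click replicate 3. The log2 fold change was 0.91 (SE 0.33, unadjusted p = 0.0259, edgeR adjusted p = 0.299), 1.27 without EDC replicate 2 and 0.71 without EDC replicate 3. Echs1 shares 1.71% of its exon bases with Paox on the opposite strand. Besides Hadhb, further values above 0.6 were 0.66 (SE 0.34) for Eci1, the enoyl-CoA isomerase, 0.62 (SE 0.30) for Acadm, the medium-chain acyl-CoA dehydrogenase, and 0.61 (SE 0.27) for Ech1, a dienoyl-CoA isomerase.

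The dehydrogenases open each turn of the spiral, each for its own chain lengths. Acadvl, the very long-chain enzyme, was at 195, 226 and 168 CPM in click and 134, 194 and 114 CPM in EDC, with EDC replicate 2 level with click replicate 1 (log2 fold change 0.42, SE 0.26, edgeR adjusted p = 0.439). Exons of Dvl2 on the opposite strand cover 42.9% of the Acadvl exon bases, and Dvl2 had 971 reads in all libraries together. Acadl, the long-chain enzyme, gave 0.14 (SE 0.26) and Acads, the short-chain enzyme, 0.36 (SE 0.37). Acads was the exception in library order, at 39.6, 25.9 and 61.2 CPM in click and 30.3, 44.6 and 23.8 CPM in EDC, so that click replicate 2 lay below EDC replicates 1 and 2. Its log2 fold change was -0.01 without click replicate 3.

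For the subunits of the trifunctional protein the estimated fold change of Hadhb lay above that of Hadha, a difference that was not tested. Hadha was at 204, 233 and 189 CPM in click and 147, 236 and 165 CPM in EDC, with EDC replicate 2 the highest of all libraries (log2 fold change 0.19, SE 0.24, edgeR adjusted p = 0.698). Hadhb was at 164, 256 and 134 CPM in click and 91.8, 161 and 93.4 CPM in EDC (0.68, SE 0.34, edgeR adjusted p = 0.365). Hadhb reads relative to Hadha reads, per length of transcript, came to 1.58, 2.16 and 1.39 in click and 1.22, 1.34 and 1.11 in EDC. The click ratios lay above the EDC ratios in 3 of 3 libraries, click replicate 3 by a small margin over EDC replicate 2. This ratio was chosen after its values were seen, and no test of it was made.

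The other enzymes and the electron carriers lay between these. Hadh, the hydroxyacyl-CoA dehydrogenase of medium and short chains, gave 0.36 (SE 0.27), the thiolase Acaa2 0.43 (SE 0.26) and the dienoyl-CoA reductase Decr1 0.45 (SE 0.28). The flavoprotein subunits Etfa and Etfb, which accept the electrons, gave 0.47 (SE 0.24) and 0.46 (SE 0.29), and Etfdh, which hands them to ubiquinone, 0.32 (SE 0.28). A gene model on the same strand covers 53.0% of the Etfb exon bases, and it had 4 reads. Eci2, an isomerase found in mitochondria and peroxisomes, had a click level of 39.4 ± 5.13 CPM and an EDC level of 39.4 ± 8.17 CPM (SD, n = 3).

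Slow fibre markers stood beside these genes with much larger differences. Summed over 8 markers they were at 4524, 9494 and 1565 CPM in click and 557, 695 and 754 CPM in EDC. In 8 of 8 all click values lay above all EDC values, against 9.84% of all genes. DESeq2 called 8 of the 8 as higher in click, against 1.56% of all genes, and edgeR called 0. EDC replicate 2, which was high for the beta-oxidation genes, was not high for slow fibre markers. Among the click libraries both the beta-oxidation genes and the slow fibre markers were highest in replicate 2 and lowest in replicate 3. Skeletal muscle markers as a whole were higher in click in 6 of 7 with TMM and in 2 of 7 with library totals (51.3% and 18.6% of all genes). Their summed level in EDC replicates 1 and 2, 102270 and 106760 CPM, lay above the 96552 CPM of click replicate 3. Of these 2 EDC libraries, replicate 1 was low for the beta-oxidation genes. Macrophage, fibroblast, neutrophil and endothelial markers had their lowest EDC sum in replicate 2, and adipocyte markers in replicate 3. The macrophage sums are given above. In EDC 5 fibroblast markers stood at 6686, 4884 and 7771 CPM, 4 neutrophil markers at 139, 9.80 and 152 CPM, and 7 endothelial markers at 235, 207 and 223 CPM. In click the macrophage and fibroblast sums were lowest in replicate 2 and the neutrophil sum in replicate 3. The neutrophil markers stood at 6.55, 10.7 and 5.11 CPM in click. Of these markers Retnlg had 0 reads in click replicates 1 and 3 and in EDC replicate 2. The part of fibre type, of the amount of fibre in the sample or of these other cell types in the beta-oxidation levels was not tested.

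**Figure D3:**
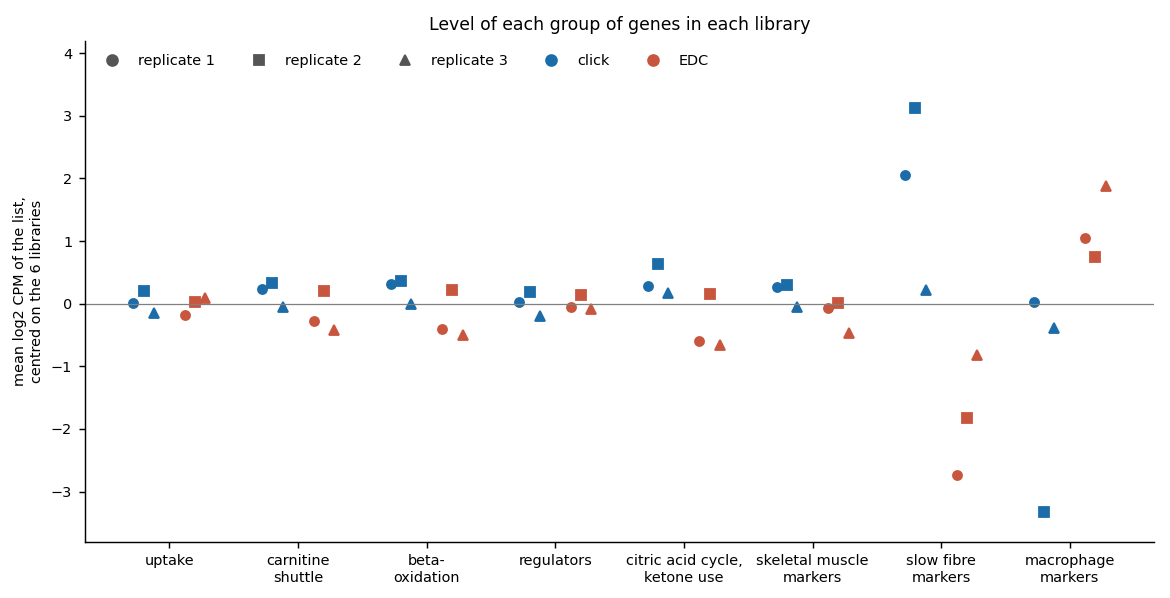
Mean log2 CPM of each group of genes in each library, centred on the mean of the 6 libraries, with the group by colour and the replicate by symbol. Beta-oxidation levels run from -0.50 to 0.37 and EDC replicate 2 sits among the click libraries, while slow fibre markers run from -2.74 to 3.12 and macrophage markers from -3.32 to 1.88.

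The regulators and fatty acid responsive genes split. Of 8 genes 5 had a log2 fold change above 0 and 3 below, with a median of 0.34, and 0 were called. With library totals 3 of 8 lay above 0 (18.6% of all genes) and the median was -0.12, against -0.45 for all genes. The 3 below with either scaling were Angptl4, Ucp3 and Pdk4. Angptl4, a secreted inhibitor of lipoprotein lipase, was at 17.5, 4.99 and 6.0 CPM in click and 36.4, 19.5 and 27.3 CPM in EDC. Every click library lay below every EDC library, click replicate 1 by the smallest margin. The log2 fold change was -1.55 (SE 0.52, unadjusted p = 0.0201, edgeR adjusted p = 0.298, DESeq2 adjusted p = 0.0672), a 2.92-fold lower level, and -2.35 without click replicate 1. Angptl4 is known from fibroblasts, fat cells and macrophages as well as muscle. The sum of 5 fibroblast markers was 3362, 698 and 4408 CPM in click and 6686, 4884 and 7771 CPM in EDC, without overlap, as were the macrophage markers, and their part in the Angptl4 level was not tested.

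Ucp3, the uncoupling protein of muscle mitochondria, was at 67.9, 49.9 and 41.9 CPM in click and 74.6, 88.9 and 60.9 CPM in EDC. The groups overlapped only through click replicate 1 and EDC replicate 3 (log2 fold change -0.49, SE 0.25, edgeR adjusted p = 0.368). Pdk4, the kinase that shuts pyruvate dehydrogenase and so spares glucose, was at 311, 254 and 205 CPM in click and 375, 245 and 249 CPM in EDC. The highest value was EDC replicate 1 and the next was click replicate 1. The log2 fold change, -0.18 with an SE of 0.27 (edgeR adjusted p = 0.757), became 0.05 without EDC replicate 1.

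Ppargc1a, the PGC-1 alpha coactivator that drives mitochondrial genes, was at 17.1, 25.5 and 18.9 CPM in click and 9.76, 18.1 and 11.3 CPM in EDC. EDC replicate 2 was the highest EDC library and lay above click replicate 1, so the groups overlapped (0.65, SE 0.29, edgeR adjusted p = 0.337). Its relative Ppargc1b gave 0.23 (SE 0.34). The receptor genes were low, with Ppard at 6.08 ± 1.73 against 4.47 ± 0.563 CPM and Ppara at 0.883 ± 0.749 against 0.371 ± 0.0891 CPM (SD, n = 3). The Ppara value of 1.24 (SE 0.70) rested on click replicate 2, which had 48 reads where the other libraries had 13 to 17, and was 0.25 without it. Plin5, the coat protein that links fat droplets to mitochondria, gave 0.60 (SE 0.55), from 0.07 without click replicate 2 to 1.19 without EDC replicate 2.

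Levels between genes were compared per kilobase of the principal annotated transcript. Fabp3 was highest in both groups, at 382 ± 122 CPM per kilobase in click and 219 ± 131 in EDC (SD, n = 3). Etfb, Lpl, Ech1 and Acadl followed in click at 161 ± 48.4, 152 ± 40.5, 126 ± 24.6 and 117 ± 24.0 CPM per kilobase, values whose neighbours in that order lay within 1 SD of each other. In EDC Lpl came after Fabp3 at 180 ± 56.2, then Etfb at 117 ± 24.0 and Acadl at 106 ± 24.8 CPM per kilobase. Cpt1b stood at 61.6 ± 6.61 in click and 48.7 ± 11.8 in EDC, below the dehydrogenases Acadl, Acadm and Acadvl in both groups. The lowest was Ppara at 0.259 CPM per kilobase in click and 0.109 in EDC, followed by Ppargc1b at 0.683 and 0.583.

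Other genes of fatty acid use were described from 6 lists, in which edgeR called 0 genes. Of all genes 51.3% lay above 0 with TMM, at a median of 0.02. With library totals 18.6% did, at a median of -0.45. Citric acid cycle and ketone use genes were above EDC in 14 of 14, with a median log2 fold change of 0.54 (11 of 14 and 0.07 with library totals) and 1 at an unadjusted p under 0.05 (7.14%, against 15.2% of all genes). Bdh1, the ketone body dehydrogenase, was at 2.46, 23.8 and 6.66 CPM in click and 1.03, 3.60 and 0.936 CPM in EDC, high mainly in click replicate 2 (2.57, SE 0.92, edgeR adjusted p = 0.299, DESeq2 adjusted p = 0.0458). Citrate synthase, Cs, gave 0.38 (SE 0.26). The list of other mitochondrial and peroxisomal oxidation genes gave 7 of 12 higher, a median of 0.19 and 2 at an unadjusted p under 0.05, both higher (16.7%, against 15.2% of all genes), and the smallest p belonged to Acat1, a thiolase of ketone use, at 0.76 (SE 0.27).

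In the list of other transport, activation and thioester genes 8 of 15 were higher in click with TMM and 4 of 15 with library totals. Of these 15, 4 had an unadjusted p under 0.05 (26.7%, against 15.2% of all genes), 2 in each direction. In the list of triglyceride store and lipolysis genes 6 of 11 were higher with TMM and 3 of 11 with library totals, and 2 had such a p (18.2%), 1 in each direction. DESeq2 called 1 gene of each list (6.67% and 9.09%, against 3.84% of all genes), both lower in click (2.27% of all genes). Plin2, the fat droplet coat protein found in many cells, was at 53.6, 18.5 and 39.3 CPM in click and 110, 80.6 and 233 CPM in EDC, with no overlap (log2 fold change -1.93, SE 0.52, edgeR adjusted p = 0.298, DESeq2 adjusted p = 0.0123). Fabp5, a fatty acid binding protein of macrophages and skin, was at 66.3, 11.3 and 47.6 CPM in click and 129, 99.1 and 294 CPM in EDC (-2.06, SE 0.69, edgeR adjusted p = 0.298, DESeq2 adjusted p = 0.0372). Cpt1a, the form of carnitine palmitoyltransferase outside muscle fibres, was at 19.0, 4.99 and 15.5 CPM in click and 31.0, 21.4 and 47.2 CPM in EDC (-1.33, SE 0.52). In these 3 genes the highest library was EDC replicate 3 and the lowest click replicate 2, the libraries with the highest and the lowest macrophage marker sums. The part of macrophages was not tested.

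Among other regulators of fuel use 15 of 20 were higher in click with TMM and 10 of 20 with library totals, with medians of 0.48 and 0.00, and 6 had an unadjusted edgeR p under 0.05, 3 in each direction (30.0%, against 15.2% of all genes). DESeq2 called 3 of the 20 (15.0%, against 3.84% of all genes). Pparg, the PPAR of fat cells and macrophages, was at 3.73, 2.29 and 3.06 CPM in click and 7.72, 7.89 and 9.08 CPM in EDC, with little spread inside a group (-1.44, SE 0.27, edgeR adjusted p = 0.298, DESeq2 adjusted p = 5.13e-04). Nrf1, a factor for nuclear genes of mitochondria, was at 8.40, 8.81 and 8.13 CPM in click and 3.69, 4.98 and 4.82 CPM in EDC (0.91, SE 0.23, DESeq2 adjusted p = 0.0227). Pdk1, a relative of Pdk4, was at 72.9, 98.6 and 63.8 CPM in click and 35.8, 47.3 and 42.5 CPM in EDC (0.91, SE 0.22, DESeq2 adjusted p = 0.0331). Nrf1 and Pdk1 were at an edgeR adjusted p of 0.298, as was Esrrg, an estrogen-related receptor, with 1.28 (SE 0.38). Of 8 fatty acid synthesis genes 4 were higher, and the median was 0.05. DESeq2 called 1 gene of that list (12.5%, against 3.84% of all genes), Me1, the malic enzyme that supplies reducing power. Me1 was at 224, 324 and 210 CPM in click and 136, 146 and 97.1 CPM in EDC (1.00, SE 0.26, edgeR adjusted p = 0.298, DESeq2 adjusted p = 0.0298).

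**Figure D4:**
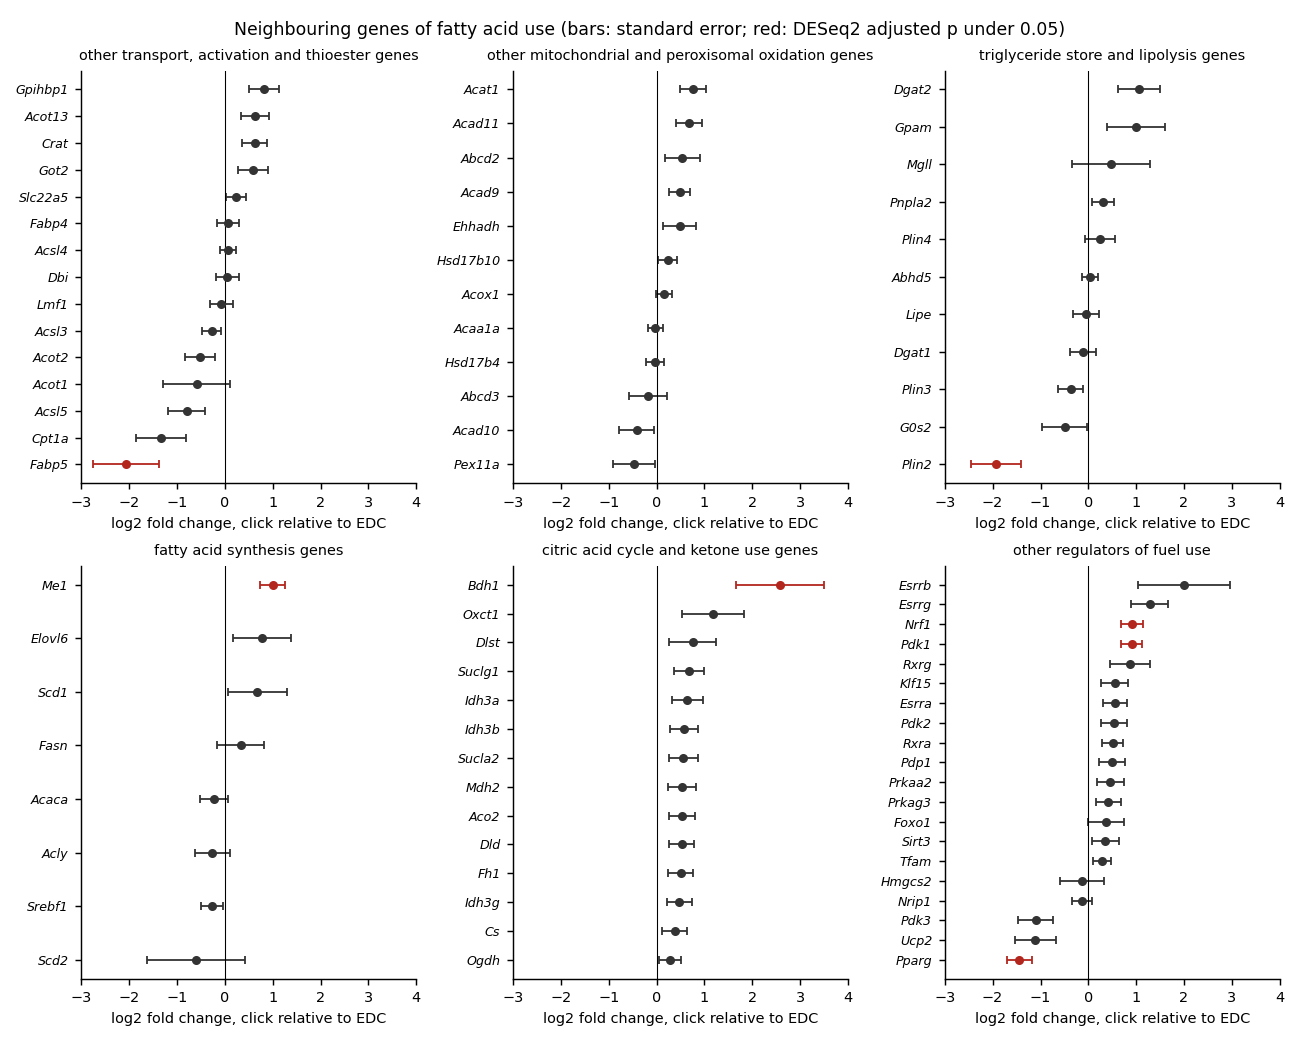
Log2 fold change, click relative to EDC, of the genes in 6 lists of related fuel use genes, with standard errors from edgeR and red marking a DESeq2 adjusted p under 0.05. With TMM scaling all 14 citric acid cycle and ketone use genes lie to the right of 0 (11 with library totals), while Plin2 (-1.93), Fabp5 (-2.06) and Pparg (-1.44) lie to the left.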

How the data were processed

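Muscle RNA was sequenced in 6 libraries, 3 per group. Per the labels' protocols, RNA was column-purified and 1 µg of total RNA went into a SMARTer mRNA kit. The deposited values are raw read counts per gene, whole numbers that the authors did not normalise. Per the submitters' processing notes, reads were placed on mm10. Aligner, counter, annotation and strand setting: not given in the sources used here. Reads of overlapping genes on opposite strands therefore cannot be told apart. Of 55335 lines, 3225 without a symbol (0.0631% to 0.0996% of reads) were left out.

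Counts were tested two-sidedly with edgeR 4.0.16 (R 4.3.3), by quasi-likelihood, after its default filter by group, with TMM scaling and Benjamini-Hochberg adjustment over 15797 genes at a threshold of 0.05. DESeq2 1.42.0 and limma 3.58.1 were run beside it. CPM were computed here from the counts. A standard error is the log2 fold change divided by the square root of F. List levels used log2(CPM + 0.5). Transcript lengths, exon overlaps and coordinates came from GENCODE M21 and promoter windows from RefSeq.

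The members and lists were chosen with earlier results of these data known. Every library is given for genes whose groups do not overlap, for the smallest p of each step and for 8 genes set by name. From the related lists, genes with a call or the smallest p are named. Fabp3, Hadhb, Acads and the genes of related lists beyond that rule (Cpt1a, Cs, Esrrg, Nrf1, Pdk1) were added after their values were seen.

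Between any pair of libraries the chi-square per gene was 61.8 to 470, so no library was a copy of another. The lowest value was between click replicate 3 and EDC replicate 2, from different groups. Pairs inside a group ran from 105 to 196. The labels do not say how replicates were obtained beyond the number of mice, so p-values measure the spread between these libraries. The scripts were tested on simulated counts. Alternatives were other scalings and filters, both other tools, the replicate number as a block, sex read from the counts, the ratio of mt-Atp6 to Gm10925 reads as a class, and leaving out each library. That ratio was 0.162, 0.937 and 0.162 in click and 0.927, 0.166 and 0.937 in EDC. The low class thus held click replicates 1 and 3 and EDC replicate 2, and the classes were uneven between groups.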

Additional observations from a re-analysis of the deposited data

How the results depend on the processing

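With click and EDC libraries of all 6 mice, edgeR called 1 gene of the whole table and 0 of the 36. The count for the whole table was 606 with DESeq2, and 0 with limma-voom, with sex or mt-Atp6 read class as a covariate and with the 4 libraries that hold Y-linked reads. It was 0 to 7 when a library was left out. No member was called under any alternative. A replicate block in edgeR gave 0 calls over all genes, and 17 members had an unadjusted p under 0.05, against 23.3% of all genes and 3 members without the block. The labels tie same-numbered libraries by number alone. They also matched in sex as read from the counts, replicate 1 of each group holding Xist reads and the others Y-linked reads. Their deviations correlated at -0.0472, 0.193 and 0.279 for replicates 1, 2 and 3, and click replicate 1 correlated best with EDC replicate 2. The count at an unadjusted p under 0.05 was 5 with library totals (17.1% of all genes), 5 with limma-voom (16.5%), 1 with the libraries that hold Y-linked reads (6.91%) and 0 to 14 when a library was left out. With library totals alone the median of the members was -0.09, 10 members lay above 0 and 8 did not overlap between groups, against 25.5% of all genes, and the sign of 20 members changed. In the other settings at most 4 members changed sign, and the median of the members was 0.26 to 0.53. Read depth of 13 to 48 reads limits Ppara.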
